A study of Homo sapiens with 14 samples.

Results

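The liver X receptors and a set of their target genes were examined across 14 RNA-seq libraries of IMR90 cells, which are human lung fibroblasts. The set holds 8 genes out of the 54628 gene symbols counted in each library. They are the receptor genes NR1H2 and NR1H3, the sterol efflux genes ABCA1 and ABCG1, the ubiquitin ligase gene MYLIP, the lipid synthesis regulator gene SREBF1, the acyltransferase gene LPCAT3, and the phosphodiesterase gene SMPDL3A. The genes were chosen by name from the known pathway, after MYLIP had been seen lower in the libraries labelled siSRRM2. Values in the comparison of those libraries with their ICM controls are therefore given as a description, and passing the threshold there is no support. All 8 genes had counts in every library, and all 8 passed the filter on low counts.

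WT cells were untreated, and siHMGB2 cells were untreated cells in which the chromatin protein gene HMGB2 was knocked down with siRNA. ICM cells were made senescent with 10 µM inflachromene (ICM), a small molecule, for up to 6 days. The siSRRM2, siBANF1 and siCTCF cells received the same compound and an siRNA against SRRM2, BANF1 or CTCF, so all 3 of these knockdowns were measured in senescent cells only. There were 4 ICM libraries and 2 of each of the other groups. ICM 3, ICM 4 and the siCTCF libraries carry another form of label, with the cell line entered as IMR91 to IMR94 where their titles read IMR90, and were treated as a second set without a WT library of its own. No label says that the replicates came from separate cultures, so p-values measure the spread between these libraries, which may be technical.

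Liver X receptors are nuclear receptors that bind DNA as partners of the retinoid X receptors and are switched on by oxysterols, the oxidised products of cholesterol. When cell sterol is high they raise genes that send cholesterol out of the cell, slow its uptake and remodel membrane lipids. The SREBP2 pathway works in the opposite sense, and raises cholesterol synthesis and uptake when cell sterol is low.

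The libraries held 22336161 to 58257456 gene counts. The share of small RNA genes was 3.19% to 6.06% in ICM 1-2 and the libraries labelled siSRRM2 and siBANF1, and at most 0.008% in the other 8. The targeted genes HMGB2 and CTCF were lower in their knockdown libraries, at 3.18 and 3.52 against 27.7 and 28.0 CPM (counts scaled to the library total) for HMGB2, and at 71.5 and 22.97 against 94.9 and 91.9 CPM for CTCF. For SRRM2, the siSRRM2 label marked 76.1 and 76.4 CPM and the siBANF1 label 59.0 and 17.0 CPM, against 238 and 112 CPM for ICM 1 and 2. For BANF1, the siBANF1 label marked 17.0 and 36.7 CPM against 13.5 and 32.7 CPM for ICM 1 and 2, and the siSRRM2 label 34.2 and 33.3 CPM. SRRM2 was thus lowest, and BANF1 not lower than in ICM 1-2, in the libraries labelled siBANF1, which goes against the labels. As deposited, the count files under the siSRRM2 label are named for BANF1 and those under the siBANF1 label for SRRM2, yet BANF1 was not below ICM 1-2 in the libraries labelled siSRRM2 either. The labels are followed as given, and every direction drawn from these 4 libraries rests on them. The 10 fibroblast markers were all detected in every group, with sums of 24550 to 32480 CPM in WT, 4972 to 19920 CPM in ICM 1-2 and 2433 to 4907 CPM in ICM 3-4. The 11 macrophage markers summed to between 0.646 and 13.1 CPM, with AIF1, C1QA and C1QB at 0 counts throughout. CD14 made up most of the highest macrophage sum, reaching 12.95 CPM in ICM 1. Under the siSRRM2 label CD14 stood at 5.5 and 6.25 CPM, and the first library labelled siBANF1 held 4.2 CPM of it. Every other library, ICM 2 included, had at most 1.34 CPM of CD14, which was the value of WT 1. The 6 epithelial markers summed to at most 0.729 CPM. The 5 endothelial markers, mostly TEK, summed to 74.6 to 89.1 CPM in WT, 68.4 to 243.5 CPM in ICM 1-2 and 2.96 to 16.2 CPM in ICM 3-4. In bulk RNA, fewer cells of a type and less RNA per cell cannot be told apart.

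The promoters of ABCA1 and MYLIP are shown because these genes followed different courses across the libraries. Both sequences are the 250 bases before the gene's start in RefSeq on GRCh38.p14, read 5′ to 3′ on the strand of the gene. Capitals mark matches to the liver X receptor element or to the E-box, the site of helix-loop-helix factors.
ABCA1, chr9:104928156-104928405, minus strand: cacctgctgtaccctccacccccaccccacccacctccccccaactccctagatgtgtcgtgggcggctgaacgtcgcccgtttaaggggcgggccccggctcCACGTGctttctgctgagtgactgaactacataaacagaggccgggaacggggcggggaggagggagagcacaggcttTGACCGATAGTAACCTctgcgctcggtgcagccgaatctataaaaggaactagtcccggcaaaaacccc
MYLIP, chr6:16128836-16129085, plus strand: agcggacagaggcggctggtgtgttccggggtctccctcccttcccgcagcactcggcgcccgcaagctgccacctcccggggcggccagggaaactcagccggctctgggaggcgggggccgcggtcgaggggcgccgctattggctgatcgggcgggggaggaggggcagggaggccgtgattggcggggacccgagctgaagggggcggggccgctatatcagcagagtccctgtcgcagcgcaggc

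The receptor element searched was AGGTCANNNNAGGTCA, a direct repeat of 1 hexamer with 4 free bases between the copies, on both strands and with up to 2 mismatches among its 12 fixed bases. The search covered 300 bases, from 250 before to 50 after each start. RefSeq gave 9 such windows for 6 of the 8 genes, 4 of them for NR1H3, and the other two genes are ABCG1 and SMPDL3A. Only the ABCA1 window held a match, 69 to 54 bases before the start, where the gene's strand reads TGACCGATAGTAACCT and the opposite strand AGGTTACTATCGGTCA. Of all 35116 promoter windows in the table, 822 (2.34%) held such a match. The E-box CACGTG was found 147 to 142 bases before the start of ABCA1 and in no other member window, against 2548 of all windows (7.26%). A match is a run of letters and not a measured site, and the MYLIP window holds neither.

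Of the receptor genes, NR1H2 encodes LXRβ, the form present in most tissues, and NR1H3 encodes LXRα, which is prominent in liver, fat and macrophages. NR1H2 (chr19:50376457-50383388) was at 97.8 and 83.0 CPM in WT, 73.8 and 82.2 CPM in siHMGB2, 92.4 and 92.0 CPM in ICM 1 and 2, and 149 and 113 CPM in ICM 3 and 4. The siSRRM2 label marked 137 and 146 CPM, the siBANF1 label 84.9 and 97.6 CPM and the siCTCF label 134 and 108 CPM. The libraries of the second set and those labelled siSRRM2 were above all others. None of the tests on NR1H2 passed the threshold, and its log2 fold change against WT was -0.11 (SE 0.242, 95% interval -0.64 to 0.43) in ICM 1-2 and 0.30 (SE 0.243, interval -0.23 to 0.84) in ICM 3-4.

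NR1H3 (chr11:47248300-47269033) was at 10.7 and 9.71 CPM in WT, 8.81 and 8.84 CPM in siHMGB2, 5.80 and 6.34 CPM in ICM 1 and 2, and 13.2 and 11.5 CPM in ICM 3 and 4. The siBANF1 label marked 3.75 and 7.76 CPM and the siCTCF label 12.0 and 11.1 CPM. Both libraries labelled siSRRM2, at 27.3 and 27.9 CPM, were above each of the other 12 libraries, whose highest value was 13.2 CPM. Its log2 fold change from WT to ICM 1-2 was -0.88 (SE 0.302, edgeR adjusted p = 0.0764), and that from WT to ICM 3-4 was 0.04 (SE 0.3, adjusted p = 0.936). The ICM 1-2 libraries were below both WT libraries, and the ICM 3-4 libraries were above both, yet neither difference passed the threshold, and that between the ICM sets (0.93, SE 0.303) had an adjusted p of 0.0538. Of its exon bases, 4.2% overlap ACP2 on the opposite strand.

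**Figure D1:**
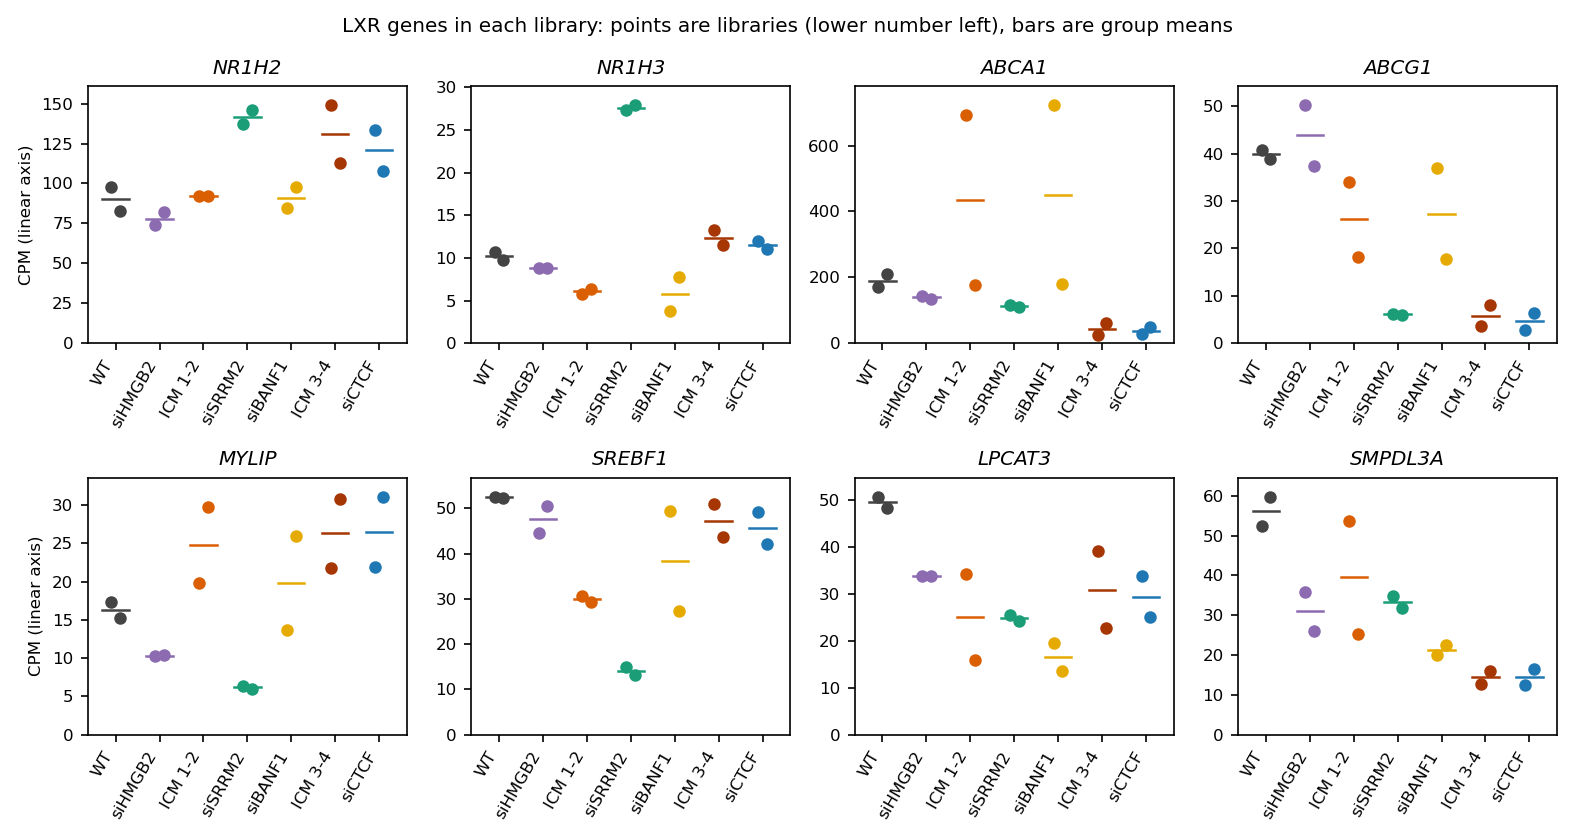
Level of each of the 8 genes in each library, in CPM on a linear axis, with groups along the horizontal axis. Points are libraries (lower replicate number left) and bars are group means. MYLIP and SREBF1 were lowest, and NR1H3 highest, in the libraries labelled siSRRM2, and ABCA1 reached 694 and 723 CPM in ICM 1 and in the first library labelled siBANF1.

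ABCA1 (chr9:104781006-104928155) encodes the transporter that passes cholesterol and phospholipid to lipid-poor apolipoprotein A-I. It was at 169 and 211 CPM in WT, 144 and 135 CPM in siHMGB2, 694 and 177 CPM in ICM 1 and 2, and 24.1 and 61.7 CPM in ICM 3 and 4. Libraries labelled siSRRM2 held 116 and 109 CPM, those labelled siBANF1 723 and 179 CPM, and siCTCF 26.6 and 48.9 CPM. ICM 1 stood 3.93 times above ICM 2, whereas ICM 2 lay within the 2 WT values, and the 4 libraries of the second set lay below all others. ICM 1 and the first library labelled siBANF1, which were high in ABCA1, also held 0.454% and 0.754% of mitochondrial mRNA, against 0.068% in the second library of each group. Their reads in no gene were 35.2% and 41.8%, against 26.5% and 28.4%, and the part of these differences was not tested.

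ABCG1 (chr21:42199689-42297244), whose product moves cholesterol towards high-density lipoprotein, was at 40.9 and 39.0 CPM in WT, 50.3 and 37.5 CPM in siHMGB2, 34.0 and 18.3 CPM in ICM 1 and 2, and 3.64 and 7.96 CPM in ICM 3 and 4. Libraries with the siSRRM2 label held 6.22 and 6.04 CPM, those labelled siBANF1 36.9 and 17.7 CPM, and siCTCF 2.82 and 6.35 CPM. In ICM 1-2 against WT its log2 fold change was -0.72, which was not called, and ran from -1.34 to -0.29 with 1 library left out. The libraries labelled siSRRM2 fell within the range of the second set.

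ICM was compared with WT to see how the pathway differs between senescent and untreated cells. In ICM 3-4, ABCA1, ABCG1 and SMPDL3A fell and the other 5 genes were not called. The 3 calls of 8 compare with 30.3% of the 19126 genes tested being called in this comparison, and 16% being called lower. ABCG1 fell by 3.04 on the log2 scale (SE 0.543, edgeR adjusted p = 0.00368), or 8.23-fold. ABCA1 fell by 2.41 (SE 0.767, adjusted p = 0.0372), or 5.32-fold. The call for ABCA1 was lost when any 1 of its 4 libraries was left out, with log2 fold changes of -3.15 to -1.92 and adjusted p of 0.073 to 0.188, and its adjusted p was 0.0502 over protein-coding genes alone. The calls for ABCG1 and SMPDL3A held without any 1 of those libraries. Without the ICM 1-2 and siBANF1 libraries in the fit, an alternative added after seeing the data, 4 of the 8 genes were called beside 54.8% of all genes, with LPCAT3 the fourth at -0.91 (adjusted p = 0.0157).

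ICM 3-4 have no WT library in their set, so that treatment and set cannot be told apart in these falls. Fibroblast markers moved with them: all 10 were lower in value in ICM 3-4 than in WT and 8 of them fell, with a median log2 fold change of -3.42. The share of mitochondrial mRNA was 3.54% and 3.11% in WT and 0.241% and 0.252% in ICM 3 and 4. The part of either in the result was not tested. Over all genes tested the median was -0.02 and over the 8 genes -0.65, with 5 lower and 3 higher in value. Of all calls, 2732 were higher and 3064 lower. Under total counts in place of TMM scaling, 3448 of 5897 calls were higher and the median of all genes was 0.18.

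In ICM 1-2, none of the 8 genes was called against WT, where 13.5% of all genes tested were called. Unadjusted p fell under 0.05 for 3 of the 8, and DESeq2 called 1 of the 8 (NR1H3) and 21% of its genes. The values lay lower than in WT for 6 genes and higher for ABCA1 and MYLIP, with a median log2 fold change of -0.67 against 0.10 over all genes. ABCA1 was at 1.11 (SE 0.735, adjusted p = 0.334), and without ICM 1 at -0.31, so that 1 library set its direction. LPCAT3 at -1.84 (adjusted p = 0.0223) and SMPDL3A at -1.36 (adjusted p = 0.0145) were called without ICM 1, beside 18.9% of all genes. These libraries also serve as controls in the contrast that chose MYLIP. WT libraries differ from ICM 1-2 in small RNA content as given above, and the part of this difference was not tested.

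ABCA1, ABCG1 and SMPDL3A also differed between the ICM sets. From ICM 1-2 to ICM 3-4, ABCA1 fell by 3.52 on the log2 scale (SE 0.803, edgeR adjusted p = 0.0143), ABCG1 by 2.32 (SE 0.528, adjusted p = 0.0142) and SMPDL3A by 1.60 (SE 0.352, adjusted p = 0.0122). These are 3 of 8 genes, beside 19.5% of all genes tested and 11% called lower. No member was called without ICM 1, where the adjusted p of the 3 genes was 0.0746 to 0.0933, or without ICM 3, where it was 0.0881 to 0.112. This comparison and that of ICM 3-4 with WT share the ICM 3-4 libraries.

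**Figure D2:**
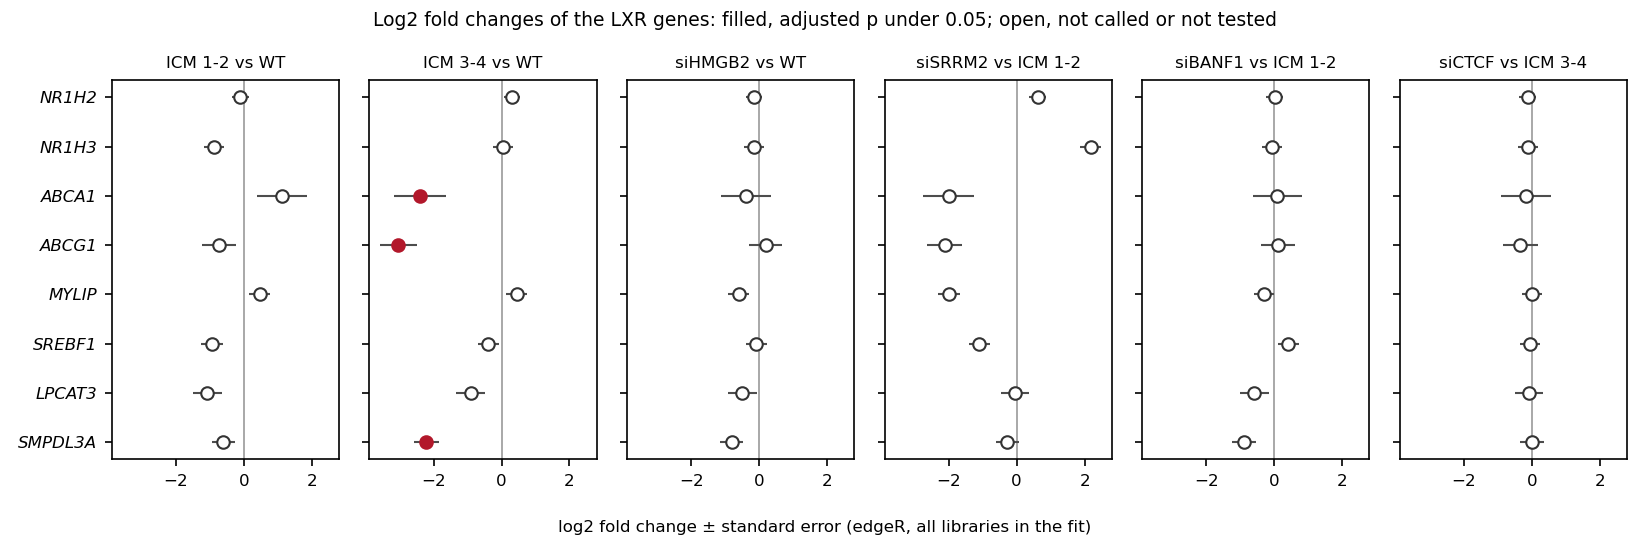
Log2 fold change of each gene (horizontal axis) with its standard error (bar) in 6 comparisons, from edgeR with all libraries in the fit. Filled points are called at an adjusted p under 0.05, and open points are not called. In the panel of siSRRM2 vs ICM 1-2 all points are drawn open, whether or not they passed the threshold. The 3 filled points are ABCA1, ABCG1 and SMPDL3A in ICM 3-4 vs WT, at -2.41, -3.04 and -2.21.

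MYLIP (chr6:16129086-16163887), also known as IDOL, is an E3 ubiquitin ligase that liver X receptors induce and that marks lipoprotein receptors, VLDLR and LRP8 among them, for degradation. It was at 17.3 and 15.2 CPM in WT, and siHMGB2 held 10.2 and 10.4 CPM. ICM 1 to 4 held 19.9, 29.7, 21.8 and 30.8 CPM, and siCTCF held 21.9 and 31.1 CPM. The libraries labelled siBANF1 held 13.7 and 26.0 CPM, and those labelled siSRRM2 held 6.38 and 6.02 CPM.

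All 4 ICM libraries lay above both WT libraries, and both siHMGB2 libraries below them. Against WT, the log2 fold change of MYLIP was 0.46 (SE 0.301, interval -0.20 to 1.12, adjusted p = 0.324) in ICM 1-2 and 0.45 (SE 0.301, interval -0.22 to 1.11, adjusted p = 0.275) in ICM 3-4. Neither passed the threshold, and MYLIP was similar in both sets, with a log2 difference between them of -0.02 (SE 0.3, interval -0.68 to 0.65). In siCTCF against ICM 3-4 it was 0.01 (SE 0.3, interval -0.65 to 0.67).

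The libraries labelled siSRRM2 held less MYLIP than each of the other 12 libraries, whose lowest and median values were 10.2 and 20.8 CPM. Against ICM 1-2 MYLIP lay 3.97-fold lower in them, at a log2 fold change of -1.99, which is the difference that chose the gene. By the same contrast NR1H3 lay 4.54-fold higher, at 2.18. ABCG1 was at -2.12, ABCA1 at -2, SREBF1 at -1.11, SMPDL3A at -0.28, LPCAT3 at -0.05 and NR1H2 at 0.62. MYLIP and NR1H3 were past the threshold there, beside 0.178% of all genes tested. MYLIP was chosen by this difference, so its place past the threshold is no support, and nothing is read from that count. Without ICM 1, ABCA1 was at -0.58, SMPDL3A at 0.47 and LPCAT3 at 0.71, while MYLIP was at -2.19 and NR1H3 at 2.19. ABCA1 and ABCG1 values in the libraries labelled siSRRM2 were within the range of the other 12 libraries, as were those of LPCAT3, NR1H2 and SMPDL3A. Of 13123 genes averaging 1 CPM or more, 6.91% were below and 8.18% above all other libraries in the libraries labelled siSRRM2, as MYLIP, SREBF1 and NR1H3 were.

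The receptors VLDLR and LRP8 were measured here as RNA only. VLDLR, at 61.2 and 70.0 CPM in WT, fell by 2.32 (SE 0.637, adjusted p = 0.0215) to 13.3 and 17.8 CPM in ICM 3-4. In ICM 1 and 2 it was at 147 and 28.2 CPM. LRP8, at 21.2 and 19.8 CPM in WT, fell by 1.357 (SE 0.359, adjusted p = 0.0331) to 7.73 and 9.91 CPM in ICM 1-2, and was at 24.0 and 14.5 CPM in ICM 3 and 4. UBE2D1, from the family of ubiquitin-conjugating enzymes that serve MYLIP, fell by 0.95 (SE 0.236, adjusted p = 0.0259) in ICM 1-2. Of the 8 genes listed as substrates and cofactors of MYLIP, 2 fell in ICM 1-2 and 1 in ICM 3-4 against WT, and none rose, beside 13.5% and 30.3% of all genes tested being called. None of them was called in siHMGB2, siBANF1 or siCTCF, where 0% of all genes was called. From ICM 1-2 to ICM 3-4, VLDLR fell by 2.655 (adjusted p = 0.0183).

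**Figure D3:**
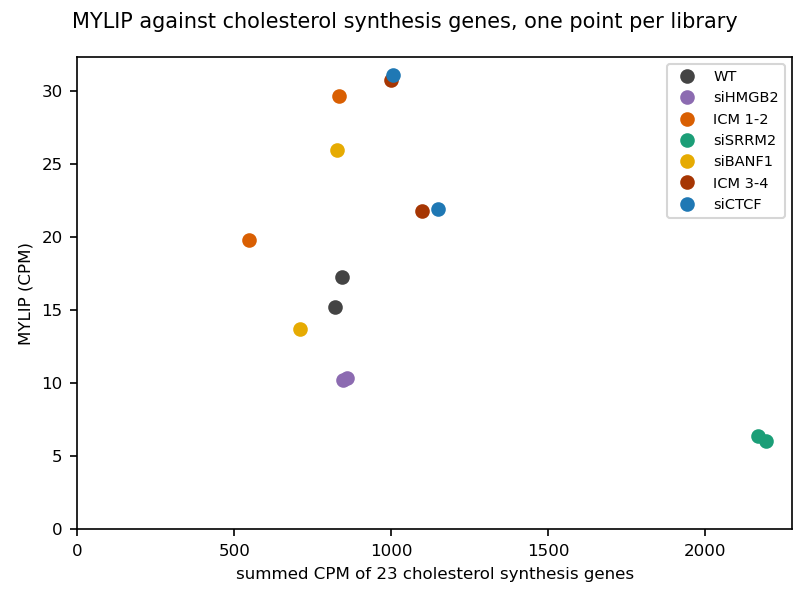
MYLIP in CPM (vertical axis) against the summed CPM of 23 cholesterol synthesis genes, with 1 point per library coloured by group, on linear axes. The libraries labelled siSRRM2 sit alone at 2167 and 2194 CPM of synthesis genes with MYLIP at 6.38 and 6.02 CPM, while the other 12 lie between 546 and 1148 CPM.

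The summed level of the 23 cholesterol synthesis genes was 843 and 822 CPM in WT, 846 and 859 CPM in siHMGB2, 546 and 833 CPM in ICM 1 and 2, and 1098 and 998 CPM in ICM 3 and 4. In the libraries labelled siSRRM2 it was 2167 and 2194 CPM. All 23 genes were higher there in value than in ICM 1-2, with a median log2 fold change of 1.70 against -0.10 over all genes. The direction of this list in these libraries was known beforehand, so a count past the threshold there is no support. Beside 0.178% of all genes tested, 5 of the 23 lay past the threshold, again as a description. These were ACAT2 (2.68), HMGCS1 (2.06), SQLE (1.92), DHCR7 (1.85) and FDPS (1.48). Elsewhere HMGCS1 and FDFT1 fell by 0.999 (SE 0.254, adjusted p = 0.0287) and 1.33 (SE 0.335, adjusted p = 0.0273) in ICM 1-2 against WT. TM7SF2 rose by 2.90 (SE 0.547, adjusted p = 0.0047) in ICM 3-4 against WT, and no other gene of the list was called against WT. These calls are 2 and 1 of the 23 genes in ICM 1-2 and ICM 3-4, beside 13.5% and 30.3% of all genes tested. From ICM 1-2 to ICM 3-4, 4 genes of the list rose and none fell, beside 19.5% of all genes tested being called. These were FDFT1 (1.83, adjusted p = 0.00604), TM7SF2 (1.82, adjusted p = 0.0343), NSDHL (0.91, adjusted p = 0.0347) and HMGCS1 (0.894, adjusted p = 0.0329). The opposed direction of this list and MYLIP was known when the genes were chosen and is not independent evidence. Among the other 12 libraries, siHMGB2 and WT had nearly the same sums, with MYLIP at 10.2 to 10.4 and 15.2 to 17.3 CPM. The 4 libraries of the second set had the highest of these sums, 998 to 1148 CPM, with MYLIP at 21.8 to 31.1 CPM, above both WT libraries.

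SREBF1 (chr17:17811334-17836986) encodes SREBP1, whose SREBP1c form is raised by liver X receptors and drives fatty acid synthesis. It was at 52.6 and 52.4 CPM in WT, 44.7 and 50.6 CPM in siHMGB2, 30.6 and 29.3 CPM in ICM 1 and 2, and 51.0 and 43.6 CPM in ICM 3 and 4. Under the siSRRM2 label it was at 14.9 and 13.1 CPM, under the siBANF1 label at 49.5 and 27.4 CPM, and in siCTCF at 49.2 and 42.2 CPM. ICM 1 and 2 lay close together and below WT, at a log2 fold change of -0.94 (SE 0.310, adjusted p = 0.0669), the lowest adjusted p of the 8 genes in that comparison. In ICM 3-4 SREBF1 was at -0.39 (SE 0.308, adjusted p = 0.353). The gene-level counts do not separate SREBP1a from SREBP1c transcripts, and 6.9% of the exon bases of SREBF1 overlap RAI1 on the opposite strand. SREBF2, which encodes SREBP2, was at 115 and 115 CPM in WT, 68.3 and 34.6 CPM in ICM 1 and 2, and 143 and 92.4 CPM in ICM 3 and 4, and was not called in any comparison.

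LPCAT3 (chr12:6976185-7018476) encodes an acyltransferase that places polyunsaturated fatty acids into membrane phospholipids. It was at 50.7 and 48.2 CPM in WT, 33.9 and 33.9 CPM in siHMGB2, 34.3 and 16.0 CPM in ICM 1 and 2, and 39.1 and 22.7 CPM in ICM 3 and 4. The libraries labelled siSRRM2 held 25.5 and 24.2 CPM, those labelled siBANF1 19.6 and 13.5 CPM, and siCTCF 33.7 and 25.1 CPM. Both WT libraries were above all 12 others, and its log2 fold change against WT was -1.08 (SE 0.424, adjusted p = 0.112) in ICM 1-2 and -0.91 (SE 0.423, adjusted p = 0.123) in ICM 3-4. In GENCODE v29, 65.6% of its exon bases overlap EMG1 on the opposite strand, and whether reads were counted by strand is not given in the sources used here, so the LPCAT3 values are uncertain.

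SMPDL3A (chr6:122789258-122809720) encodes a secreted phosphodiesterase related to acid sphingomyelinase that responds to liver X receptor agonists in human cells. It was at 52.5 and 59.8 CPM in WT, 35.8 and 26.1 CPM in siHMGB2, 53.8 and 25.3 CPM in ICM 1 and 2, and 12.8 and 16.0 CPM in ICM 3 and 4. The libraries labelled siSRRM2 held 34.9 and 31.9 CPM, those labelled siBANF1 20.1 and 22.4 CPM, and siCTCF 12.5 and 16.5 CPM. The second set lay below all other libraries without overlap, and SMPDL3A fell by 2.21 on the log2 scale in ICM 3-4 against WT (SE 0.359, adjusted p = 0.00242), or 4.63-fold.

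The comparison of siHMGB2 with WT asks what loss of HMGB2 alone does without the compound. None of the 8 genes was called by edgeR, beside 0% of all genes tested, with 1 of 8 (SMPDL3A) at an unadjusted p under 0.05 and none called by DESeq2, which called 0.423% of its genes. HMGB2 itself was not called by edgeR there, at 3.18 and 3.52 CPM against 27.7 and 28.0 CPM in WT. The lack of edgeR calls therefore says little about the 8 genes. Values were lower for 7 genes, with a median log2 fold change of -0.28 against 0.00 over all genes. In a fit to the 4 WT and siHMGB2 libraries alone, MYLIP at -0.59 (adjusted p = 0.0132), LPCAT3 at -0.48 (adjusted p = 0.0148) and SMPDL3A at -0.80 (adjusted p = 7.11e-05) were called, beside 10.7% of all genes. Both siHMGB2 libraries lay below both WT libraries in these 3 genes, which adds no support because the genes were picked by a fit to these same 4 libraries.

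In the libraries labelled siBANF1, ABCA1 and ABCG1 lay close to the ICM library of the same number. ABCA1 was at 723 CPM beside 694 CPM in ICM 1, and at 179 CPM beside 177 CPM in ICM 2. ABCG1 was 1.09 and 0.968 times its same-numbered ICM library. The first library departed further from ICM 1 in other members, with SMPDL3A at 0.374 times, LPCAT3 at 0.570 times, NR1H3 at 0.647 times, MYLIP at 0.691 times and SREBF1 at 1.62 times its level. In the second library all 8 genes were between 0.848 and 1.22 times ICM 2. Against ICM 1-2 none of the 8 genes was called, beside 0% of all genes tested, with SMPDL3A (-0.89, SE 0.345) the 1 gene of 8 at an unadjusted p under 0.05 and none called by DESeq2, which called 0.133% of its genes.

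In siCTCF against ICM 3-4 none of the 8 genes was called, beside 0% of all genes tested, with 0 of 8 at an unadjusted p under 0.05 and none of the 8, and 0% of all genes, called by DESeq2. The log2 fold changes ran from -0.34 (ABCG1, SE 0.515, interval -1.48 to 0.80) to 0.01 (MYLIP). Intervals of this width do not show that siCTCF leaves the genes unaltered.

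To compare genes with each other, CPM values were divided by the exon length of the gene in kilobases. In WT, NR1H2 at 24.1 ± 2.78 (SD, n = 2) and SMPDL3A at 23.9 ± 2.19 CPM per kb did not differ beyond their spread. ABCA1 followed at 16.7 ± 2.57 and LPCAT3 at 10.47 ± 0.376 CPM per kb. SREBF1 and ABCG1, at 6.54 ± 0.0217 and 6.52 ± 0.216, were within their spread of each other. MYLIP at 5.35 ± 0.486 and NR1H3 at 2.25 ± 0.149 CPM per kb were the lowest. NR1H2 RNA was the higher of the receptor RNAs in WT, and in the libraries labelled siSRRM2 the levels were 37.8 ± 1.69 CPM per kb for NR1H2 and 6.09 ± 0.0988 for NR1H3. In ICM 3-4, ABCG1 at 0.948 ± 0.499 CPM per kb was the lowest of the 8.

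**Figure D4:**
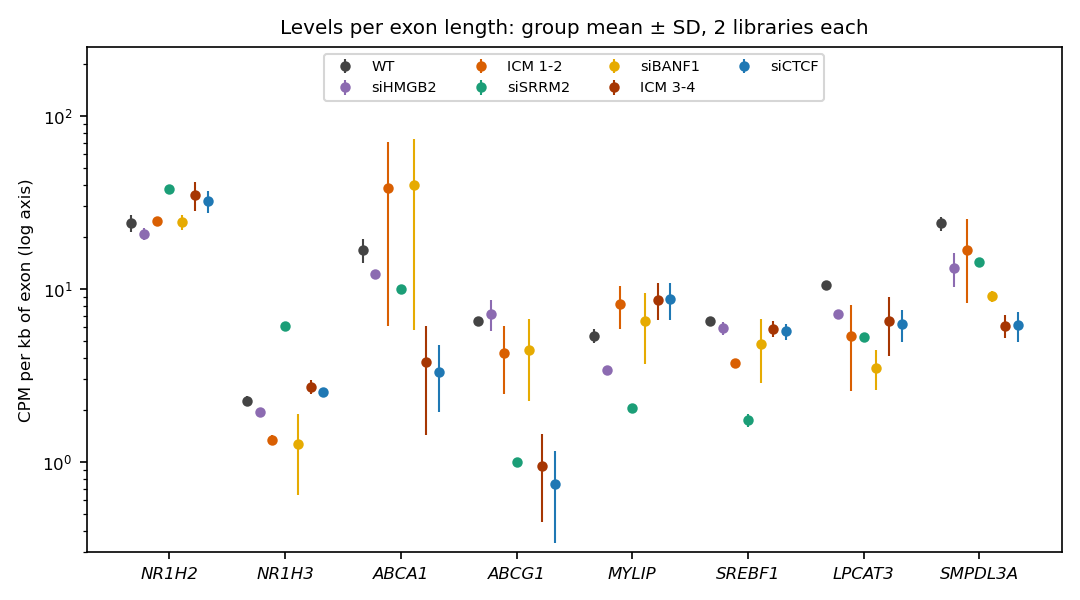
Group mean level of each gene per kilobase of exon (CPM per kb, log axis), with bars for the SD over 2 libraries. NR1H2 lay between 20.8 and 37.8 CPM per kb in all 7 groups, whereas ABCA1 ran from 3.33 in siCTCF to 39.7 in the libraries labelled siBANF1, where the replicates lay far apart.

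Of 17 further liver X receptor targets, 9 passed the filter on low counts. In ICM 3-4 against WT, 3 of these fell and none rose, close to the 30.3% of all genes tested that were called there, with 16% called lower. PLTP, which transfers phospholipid between lipoproteins, fell by 2.60 (SE 0.593, adjusted p = 0.0105) from 53.5 and 47.5 CPM in WT to 10.8 and 8.87 CPM. EEPD1, reported to promote ABCA1-dependent efflux, fell by 2.42 (SE 0.651, adjusted p = 0.0198), and APOE, the apolipoprotein that carries effluxed lipid, by 1.47 (SE 0.373, adjusted p = 0.0162). The median log2 fold change of the 9 was -1.47 there and -1 in ICM 1-2, where none was called, beside 13.5% of all genes tested. From ICM 1-2 to ICM 3-4, 1 of the 9 rose and 1 fell, beside 19.5% of all genes tested being called, with a median log2 fold change of -0.34. The gene that rose was the fatty acid synthase gene FASN, by 1.87 (SE 0.451, adjusted p = 0.0178).

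The partner RXRA was at 80.1 and 85.0 CPM in WT, 57.8 and 38.5 CPM in ICM 1 and 2, and 71.2 and 65.2 CPM in ICM 3 and 4, and was not called in any comparison. In ICM 1-2 against WT, 1 of the 12 retinoid X receptor and coregulator genes tested rose and 1 fell, beside 13.5% of all genes called. The gene that fell was RXRB, by 2.47 (SE 0.511, adjusted p = 0.0126), from 2.24 and 2.00 to 0.410 and 0.424 CPM. RXRB was at 1.97 and 1.73 CPM in ICM 3 and 4. Libraries labelled siSRRM2 held 0.270 and 0.606 CPM of it, and those labelled siBANF1 0.685 and 0.429 CPM. Of the 12 retinoid X receptor and coregulator genes tested, 4 rose and 2 fell in ICM 3-4 against WT, beside 30.3% of all genes called. TBL1X and TBL1XR1, parts of the NCoR corepressor complex, fell by 3.24 (SE 0.703, adjusted p = 0.00834) and 1.48 (SE 0.237, adjusted p = 0.00225). The acetyltransferase coactivator genes EP300 and CREBBP rose by 1.65 (SE 0.426, adjusted p = 0.017) and 1.63 (SE 0.354, adjusted p = 0.0085). NCOA3, a further coactivator, rose by 0.84 (SE 0.224, adjusted p = 0.0348) in ICM 1-2 and by 0.76 (SE 0.224, adjusted p = 0.0283) in ICM 3-4.

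CH25H makes 25-hydroxycholesterol, one of the oxysterols. It was at 2.32 and 2.00 CPM in WT, 0.246 and 0.0553 CPM in ICM 1 and 2, and 0 and 0.118 CPM in ICM 3 and 4. It fell in both sets, with adjusted p of 0.0267 and 0.00808, and no size is given for ICM 3-4 because ICM 3 had no count and ICM 4 had 3. None of the other 3 oxysterol genes tested was called against WT in either ICM set, beside 13.5% and 30.3% of all genes tested in ICM 1-2 and ICM 3-4. MIR33A, the precursor of a microRNA that targets ABCA1 RNA, had no count and MIR33B at most 9 counts in a library, and neither was tested.

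Of 12 genes for sterol uptake, storage and transfer, 2 rose and 3 fell in ICM 3-4 against WT, beside 30.3% of all genes called. OSBP, which exchanges sterol between membranes, rose by 2.13 (SE 0.322, adjusted p = 0.0018) from 68.7 and 76.8 CPM to 394 and 358 CPM. STARD3, which tethers late endosomes and carries sterol, rose by 1.084 (SE 0.212, adjusted p = 0.00554). SOAT1, the enzyme that esterifies cholesterol for storage, fell by 1.31 (SE 0.260, adjusted p = 0.00594). In ICM 1-2 against WT, NPC1, which exports cholesterol from lysosomes, rose by 1.28 (SE 0.366, adjusted p = 0.0428) from 77.8 and 84.5 CPM to 250 and 179 CPM. No gene of this list fell past the threshold there, and the 1 call of 12 stands beside 13.5% of all genes tested.

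Among 9202 genes averaging 10 CPM or more, the genes whose levels followed MYLIP most closely over the 14 libraries were RRAGC (Pearson r = 0.933), USP12 (0.893), MMGT1 (0.891), RIMOC1 (0.889) and STRN (0.877). The siSRRM2 label marked 17.8 and 16.8 CPM of RRAGC, and its levels elsewhere ran from 35.9 CPM in WT 1 and siHMGB2 2 to 88.2 CPM in siCTCF 2. For ABCA1 they were XRN1 (0.978), ACVR2B (0.973), FGD4 (0.967), TCP11L2 (0.966) and TMED4 (0.965). No liver X receptor gene was among these 10 genes. Between members, r was 0.81 for ABCA1 with ABCG1, 0.74 for ABCG1 with SMPDL3A and -0.67 for MYLIP with NR1H3, while MYLIP with ABCA1 was at -0.17. These r values describe log2 levels in libraries that share sets, replicate numbers and depth, and carry no test.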

How the data were processed

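The deposited files hold whole-number read counts per gene symbol, 1 per library. Per the submitters' processing notes, STAR 2.7.3a, HTSeq 0.12.4, DESeq2 1.36.0 and hg38 were used. The annotation and strand setting are not given in the sources used here. The 5 lines for reads in no gene (12.75% to 41.78% of reads) were left out of totals and tests. CPM is the count scaled to the gene counts of its library, without TMM.

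Tests used edgeR 4.0.16 in R 4.3.3 (TMM, filterByExpr, quasi-likelihood) with all 14 libraries and 7 groups in a single fit (7 residual degrees of freedom), ICM being split by label form. Of 54628 symbols, 19126 were tested. "Called", "rose" and "fell" mean a Benjamini-Hochberg adjusted p under 0.05 over all tested genes; intervals are 95%. The fit was tested on simulated data.

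All 8 members are named with values in every library. From the other lists, genes were named if called, up to 4 per list and comparison by size of change, as well as VLDLR, LRP8, RXRA and SREBF2. Some genes this rule selects are not reported here. For likeness, the 5 highest Pearson r of log2(TMM CPM + 1) were taken. Members, lists and tests were chosen with earlier results of these data known. The marker lists covered fibroblast, macrophage, epithelial and endothelial genes. Alternatives were RLE and total-count scaling, no filter beyond 1 count, a minimum mean of 1 CPM, protein-coding genes only, DESeq2 1.42.0, compared libraries only, a replicate block, other ICM controls and leaving out each library.

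Exon lengths and overlaps are from GENCODE v29, gene positions and promoters from RefSeq (GRCh38.p14). Python 3.11.15, numpy 2.4.6, pandas 2.3.3 and matplotlib 3.10.9 were also used.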

Additional observations from a re-analysis of the deposited data

Results flagged for a closer look

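Levels differed between the sets of ICM libraries in 3 of the 8 genes, by the edgeR test of ICM 3-4 against ICM 1-2, in which 19.5% of all genes tested were called and 11% were called lower. ICM 3-4 minus ICM 1-2 was -3.52 on the log2 scale for ABCA1 (adjusted p = 0.0143), -2.32 for ABCG1 (adjusted p = 0.0142) and -1.60 for SMPDL3A (adjusted p = 0.0122). None of the 3 was called without ICM 1, without ICM 3 or in a fit to the 4 ICM libraries alone, and SMPDL3A was not called without ICM 4. The second set has no WT library, so a different response to ICM and a difference between sets cannot be told apart. ABCA1 was at 694 and 177 CPM in the first set and at 24.1 and 61.7 CPM in the second, beside 169 and 211 CPM in WT.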

How the results depend on the processing

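Over all alternatives, 605 of 712 values of single members kept direction and side of the threshold, 27 lost and 23 gained the call, and 57 changed sign, 38 of them when 1 library was left out. Causes were not tested. Calls among the 8 genes in siSRRM2 vs ICM 1-2, a description only, were 2 as reported, 0 with total counts scaling and with compared libraries only, and 4 with no filter beyond 1 count, with ICM 3-4 as control and with DESeq2. In ICM 1-2 vs WT they were 0 as reported, 2 with no filter beyond 1 count and 1 with DESeq2. With compared libraries only they rose from 0 to 3 in siHMGB2 vs WT and fell from 3 to 0 in ICM 3-4 vs ICM 1-2, and with ICM 3-4 as control they rose from 0 to 3 in siBANF1 vs ICM 1-2. Leaving out each library gave 0 to 2 calls in ICM 1-2 vs WT (2 without ICM 1), 0 to 3 in ICM 3-4 vs ICM 1-2 (0 without ICM 1 or ICM 3), 2 in ICM 3-4 vs WT and 0 in siSRRM2 vs ICM 1-2; where 1 library remained in a group it was assumed to vary like the other groups.

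Genes called in all were 2580 in ICM 1-2 vs WT, against 33 with compared libraries only, 1451 over protein-coding genes, 3883 with no filter, 4010 with DESeq2 and 545 to 3612 with 1 library left out. In ICM 3-4 vs WT they were 5796, against 8993 with compared libraries only, 10487 without ICM 1-2 and siBANF1 and 1922 to 2602 with 1 library left out. In ICM 3-4 vs ICM 1-2 they were 3739, against 239 with compared libraries only and 1206 to 6057 with 1 left out. In siSRRM2 vs ICM 1-2 they were 34, against 1 with total counts scaling, 54 with a minimum mean of 1 CPM, 58 over protein-coding genes, 727 with DESeq2, 814 with no filter, 0 with compared libraries only, 4284 with ICM 3-4 and 1738 with all 4 ICM libraries as control, and 1 to 47 with 1 left out. Comparisons with 0 called gave, for siHMGB2, 94 with no filter, 73 with DESeq2, 261 without ICM 1-2 and siBANF1 and 2055 with compared libraries only. For siBANF1 they gave 161 with no filter, 17 with DESeq2, 3016 with ICM 3-4 and 121 with all 4 ICM libraries as control, and up to 81 with 1 left out, and for siCTCF 38 with all 4 ICM libraries as control.

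Log2 fold changes that changed sign were near 0 in some settings and far from 0 in others. With total counts scaling they were NR1H2 at 0.027 in ICM 1-2 vs WT and -0.015 in siBANF1 vs ICM 1-2 (also -0.015 with compared libraries only), and MYLIP at 0.087 in ICM 3-4 vs ICM 1-2 (0.005 with a minimum mean of 1 CPM). With ICM 3-4 as control, siSRRM2 values were 1.52 for ABCA1, 0.20 for ABCG1 and 1.32 for SMPDL3A, and siBANF1 values -0.14 for SREBF1, -0.40 for NR1H2 and 0.71 for SMPDL3A. With all 4 ICM libraries as control, SMPDL3A was at 0.52 in siSRRM2 and NR1H2 at -0.19 in siBANF1, and in siCTCF SREBF1 was at 0.23, LPCAT3 at 0.01, NR1H2 at 0.082, NR1H3 at 0.36 and SMPDL3A at -0.79.

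Leaving out each library in turn moved these log2 fold changes across 0. In ICM 1-2 vs WT, NR1H2 from -0.23 to 0.025 and ABCA1 from -0.31 to 1.81. In ICM 3-4 vs WT, NR1H3 from -0.12 to 0.20. In siHMGB2 vs WT, ABCG1 from -0.016 to 0.37 and SREBF1 from -0.20 to 0.021. In siSRRM2 vs ICM 1-2, LPCAT3 from -0.55 to 0.71 and SMPDL3A from -0.77 to 0.47. In siBANF1 vs ICM 1-2, LPCAT3 from -1.08 to 0.17, ABCA1 from -1.38 to 1.51, ABCG1 from -0.63 to 0.71, NR1H2 from -0.064 to 0.092, MYLIP from -0.73 to 0.034, SREBF1 from -0.18 to 0.83 and NR1H3 from -0.58 to 0.31. In siCTCF vs ICM 3-4, MYLIP from -0.20 to 0.20, SREBF1 from -0.23 to 0.13, LPCAT3 from -0.47 to 0.44, NR1H2 from -0.37 to 0.16, NR1H3 from -0.27 to 0.061, SMPDL3A from -0.14 to 0.14, ABCA1 from -0.67 to 0.56 and ABCG1 from -0.96 to 0.24. In ICM 3-4 vs ICM 1-2, MYLIP from -0.21 to 0.22 and LPCAT3 from -0.34 to 0.94.

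The replicate numbers of the first set tie no library to a culture. Same-numbered libraries deviated together across genes at r = 0.211 for WT and siHMGB2, 0.066 for ICM 1-2 and siSRRM2, and 0.854 for ICM 1-2 and siBANF1, with only 2 pairs each. With the replicate block, genes called were 1384 in ICM 1-2 vs WT, 63 in siSRRM2 vs ICM 1-2 and 0 for siHMGB2 and siBANF1, LPCAT3 was at 0.083 in siSRRM2 vs ICM 1-2, and no member changed its call. siCTCF 1 and 2 share no replicate number with ICM 3 and 4, so no block was fitted there; taken in number order, the libraries deviated together at r = 0.823.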
